A study of Mus musculus with 17 samples.

Results

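Chil3 monocytes, an inflammatory population of the skin, were taken from the 8 skin libraries of a droplet-based single-cell RNA-seq series. The rule began from cells in which 200 genes or more were found and mitochondrial genes took no more than 20% of the UMIs (unique molecular identifiers, each standing for a captured transcript). It then asked for at least 2 Chil3 UMIs, at least 1 UMI of Ly6c2, Fcgr1 and Ms4a4c together, no Csf3r UMI, at most 2 UMIs of Mmp12 and Ear2 together, and at most 2 UMIs of Folr2, Cbr2 and Ccl8 together. It found 362 members among 31972 skin barcodes, of which 30085 passed the filter on cells. The whole series held 107534 barcodes in 17 libraries of skin and kidney.

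All mice carried PDGFRb-Cre and the Z/EG reporter, which marks the PDGFR-β lineage with GFP, and GFP+ cells were sorted from digested skin. SARAWT mice received PBS (3 libraries) or bleomycin (3 libraries), and SARATg mice received PBS (1 library) or bleomycin (1 library). Injections were subcutaneous, in mice of 8 weeks. Bleomycin, a DNA-damaging drug that causes skin fibrosis, was given at 20 mg/kg, per the labels in 3 injections a week for 2 weeks and per the methods daily, so the schedule is uncertain. SARATg mice carry a human ZFYVE9 cDNA, which encodes SARA (Smad anchor for receptor activation), at Rosa26 behind a CAG promoter and a lox-stop-lox cassette. PDGFRb-Cre also recombines in leukocytes, so the monocytes are sorted with the pericytes and can carry the transgene. The sources used here do not say how many mice made up a library, so a p-value measures only the spread between libraries.

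The targeted gene did not match every label. Mouse Zfyve9 stood at 621 CPM (counts per 1000000 UMIs) over all cells of the library labelled SARAWT PBS 3, above both SARATg libraries (314 and 224 CPM) and far above the other 5 SARAWT libraries (7.75 to 26.0 CPM). Among the members it had 790 CPM in the library labelled SARAWT PBS 3, with UMIs in 108 of 109 cells, 407 CPM in SARATg PBS 1 and 322 CPM in SARATg bleomycin 1. It had 0, 12.7 and 20.8 CPM in members of SARAWT bleomycin 1, 2 and 3. The human ZFYVE9 entry, listed in 4 libraries, had 843 CPM over all cells of the library labelled SARAWT PBS 1 against 87.8 to 188 CPM in the other 3. Besides the library labelled SARAWT PBS 3, SARAWT bleomycin 3 (9.39 CPM of mouse Zfyve9) is the only SARAWT library without that entry. Mouse Zfyve9 is therefore not a like measure in the 4 libraries that list the human entry. Those 4 libraries (SARAWT PBS 1 and 2, bleomycin 1 and 2) used a longer gene list and a newer Cell Ranger and had Xist but almost no Ddx3y, and the other 4 the reverse, so gene list, software version and sex cannot be told apart. Library depth ran from 3355217 to 69765525 UMIs, and members' median depth from 7630 to 14085.5 UMIs in the 6 libraries with more than 1 member.

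Classical Ly6C-high monocytes leave the bone marrow through the chemokine receptor Ccr2, enter inflamed tissue, and there release cytokines and chemokines or turn into macrophages and dendritic-like cells. Chil3 encodes Ym1, a chitinase-like protein made by mouse myeloid cells, and Thbs1 encodes thrombospondin-1, a matrix protein that can activate latent TGF-β. Cells that differentiate in tissue often gain MHC class II, the α and β chains that show peptides to CD4 T cells, with the invariant chain Cd74 and the peptide-loading H2-DM proteins. Class II genes are switched on together by Ciita through a shared promoter module whose Y box holds an inverted CCAAT sequence bound by NF-Y.

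Class II genes carried the main difference between libraries below, so the 250 bases before the start of 3 of them are shown, with the Y box letters TGATTGG in capitals, read 5′ to 3′ on the gene's own strand (RefSeq, GRCm38.p6). H2-Aa lies at chr17:34287824-34288073 on the minus strand, H2-Eb1 at chr17:34305617-34305866 on the plus strand and H2-DMb1 at chr17:34152941-34153190 on the plus strand.
H2-Aa: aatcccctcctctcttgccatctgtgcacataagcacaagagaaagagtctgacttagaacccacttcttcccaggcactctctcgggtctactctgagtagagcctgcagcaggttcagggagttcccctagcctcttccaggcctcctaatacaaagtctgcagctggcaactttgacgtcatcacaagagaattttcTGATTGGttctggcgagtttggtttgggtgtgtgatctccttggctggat
H2-Eb1: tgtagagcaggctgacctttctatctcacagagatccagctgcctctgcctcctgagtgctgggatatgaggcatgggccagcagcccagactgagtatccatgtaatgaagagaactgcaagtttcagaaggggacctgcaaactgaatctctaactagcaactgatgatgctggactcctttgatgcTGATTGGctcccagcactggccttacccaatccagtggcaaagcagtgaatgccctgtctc
H2-DMb1: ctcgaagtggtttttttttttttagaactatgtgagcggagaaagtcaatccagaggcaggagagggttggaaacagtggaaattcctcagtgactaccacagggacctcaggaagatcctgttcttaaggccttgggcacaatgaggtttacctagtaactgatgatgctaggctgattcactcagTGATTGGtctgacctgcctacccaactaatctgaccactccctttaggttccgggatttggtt
The first base of the motif lies 50 bases before the start of H2-Aa, 61 before H2-Eb1 and 63 before H2-DMb1. Searched on both strands, it was in the window of 6 of 10 class II list genes matched (of 15 on the list) and in 2375 of 32851 windows of all genes (7.23%). A match describes letters only.

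The steps of the rule show how the members were set apart. Of the kept cells, 908 had at least 2 Chil3 UMIs, 851 of these also had a UMI of Ly6c2, Fcgr1 or Ms4a4c, and 424 of those had no Csf3r UMI. The limits on Mmp12 with Ear2 left 395 and those on Folr2, Cbr2 and Ccl8 left 362. Asking for no Csf3r, the receptor for G-CSF and the gate's mark of neutrophils, removed the most cells among the steps after Chil3.

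The edges of the rule were not sharp. The 49 members at 2 Chil3 UMIs had 1256 CPM of Ly6c2 and 4110 CPM of Thbs1, and the 95 cells that failed at 1 Chil3 UMI had 876 and 3261 CPM. The 220 cells left out for 1 Csf3r UMI had 1163 CPM of Ly6c2, 4828 CPM of Thbs1 and 61.1 CPM of the neutrophil gene S100a8, close to the members' summed 1010, 5164 and 68.3 CPM. Cells with that profile therefore lie on both sides of the limit on Csf3r. Members just inside the Folr2, Cbr2 and Ccl8 limit (10 cells at 2 UMIs) had 1927 CPM of C1qa, a complement gene of macrophages, and the 3 cells just outside had 3522 CPM.

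Within the members, Chil3 itself ran from 2 to 116 UMIs with a median of 8.5. Ms4a4c had a UMI in 338 of 362 members, Ly6c2 in 296 and Fcgr1, the high-affinity IgG receptor, in 226. Markers that the rule did not use were also common, with Ccr2 in 321 members, Plac8 in 336, Thbs1 in 325, the cytokine gene Il1b in 343 and the growth factor receptor gene Csf1r in 341. H2-Aa, a class II α chain, had a UMI in 271 members, with a median of 19.5 UMIs and a highest value of 249.

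Set beside other skin cells chosen by marker genes, the members had the profile of classical monocytes. Because the rule chose on the same counts, these levels are a description without a test. The other gates were Folr2 macrophages (2063 cells), Mmp12 Ear2 cells (3317), neutrophils (1878) and T cells (3012), the last giving the level of free RNA. Mean summed Plac8 was 1856 CPM ± 591 (SD, n = 5 libraries with at least 10 members), against 191 in Folr2 macrophages, 63.4 in Mmp12 Ear2 cells, 175 in neutrophils and 40.4 in T cells. Thbs1 had 4474 CPM ± 2431 in members against 423, 128, 1098 and 8.08 CPM in the same order. Vcan, a proteoglycan of classical monocytes, had 484 CPM ± 527 in members and 83.0 CPM or less elsewhere, but its level in members ranged from 26.4 to 1380 CPM between libraries.

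**Figure D1:**
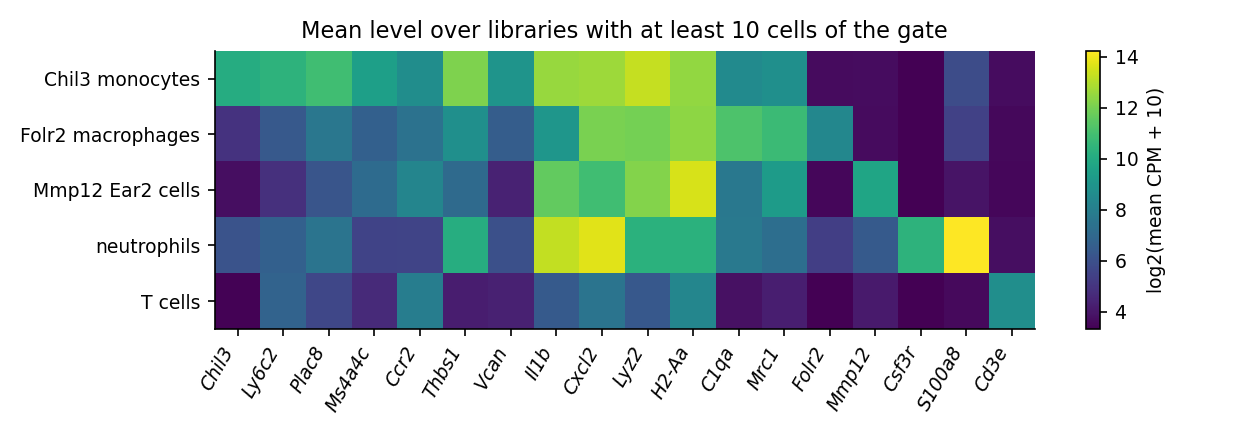
Mean summed level of 18 genes (columns) in 5 groups of skin cells (rows), as log2 of the mean CPM plus 10 over libraries with at least 10 cells of the group. Chil3 monocytes share Il1b, Cxcl2 and Lyz2 with the other myeloid cells and stand highest for Chil3, Ly6c2, Plac8, Ms4a4c, Thbs1 and Vcan, some of which the rule used.

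Ranked by their lowest log2 ratio over Folr2 macrophages, Mmp12 Ear2 cells and neutrophils, the 15 leading genes were Chil3 (3.96), Ly6c2 (3.25), Plac8 (2.92), Ms4a4c (2.15), Gm9733 (2.14), Thbs1 (1.81), Vcan (1.80), Plcb1, Gcsh, Ly6i, Mxi1, Lpar6, B3gnt5, Arhgef10l and Nrg1 (1.28). Nrg1, which encodes the ErbB ligand neuregulin-1, had 190 CPM in members and ranged from 110 to 339. The most abundant genes were the ferritin chain Fth1 (15694 CPM), the repeat-rich transcript Gm42418 (14746), Tmsb4x (12388), Malat1 (12125), Cd74 (11410) and the lysozyme gene Lyz2 (9791). Cxcl2, a neutrophil-attracting chemokine, had 6364 CPM and Il1b 5909. Some of these genes also led in neutrophils, with Cxcl2 at 13848 CPM there.

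Lists for other cells differed widely in their level in members. Summed over each list, the nonclassical monocyte genes stood at 3244 to 4177 CPM by library and neutrophil genes at 360 to 735 CPM. Cx3cr1, Ace, Spn and Treml4, markers of nonclassical monocytes, had 89, 62, 54 and 65 UMIs over all members. The nonclassical sum thus came mostly from other genes. A neutrophil list UMI was in 100 of 109 members of the library labelled SARAWT PBS 3 and 106 of 122 of SARATg bleomycin 1. Resident macrophage genes had 2039 CPM in the library labelled SARAWT PBS 3 and 1330 CPM in SARATg PBS 1, against 2870 to 4405 CPM in the 4 bleomycin libraries, with no overlap. The T cell and innate lymphoid list had 253 CPM in the library labelled SARAWT PBS 3, with UMIs in 64 of 109 members, and 327 CPM in SARATg PBS 1, where 31 of 33 UMIs were in 1 cell, against 97.4 to 105 CPM in the 4 bleomycin libraries. Over all members, Il7r of that list had 483 UMIs, against 20 of Cd3d, 16 of Cd3e and 34 of Cd3g. The list sum is thus mostly Il7r and is not a measure of T cell RNA. The part of RNA from other cells in the differences by treatment was not tested. The erythroid list reached at most 7.55 CPM, and the B cell list 47.9 CPM. Cd3e, which defines T cells, had 2.87 CPM against 415 CPM in the T cell gate, although 1 member also met the T cell gate. S100a8 had 47.5 CPM ± 70.9 in members against 19202 CPM in neutrophils. The stromal list stood at 18.9 to 3218 CPM by library, but 758 of its 760 UMIs in SARAWT bleomycin 2, 410 of 458 in the library labelled SARAWT PBS 3 and 232 of 252 in SARAWT bleomycin 3 were in 1 cell each. The keratinocyte list was at 8.47 CPM or less in 5 libraries and at 386 CPM in SARATg bleomycin 1, where 522 of 548 UMIs were in 1 cell. Doublet scoring placed 15 of the 362 members in the range set aside as likely doublets, and 1 member shared its barcode with another library.

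The first comparison asked whether bleomycin changed how common these monocytes were among sorted cells. There were 109 members of 4636 kept cells in the library labelled SARAWT PBS 3 (2.35%, Clopper-Pearson 95% interval 1.93 to 2.83), 1 of 4076 in the library labelled SARAWT PBS 1 (0.0245%, 0.000621 to 0.137) and 0 of 781 in SARAWT PBS 2, which allows a share of up to 0.384% by a limit of 3 counts (Clopper-Pearson upper bound 0.471). The 3 SARAWT bleomycin libraries had 23 of 2155 (1.07%, 0.678 to 1.6), 16 of 2168 (0.738%, 0.422 to 1.20) and 82 of 6548 (1.25%, 0.997 to 1.55). SARATg PBS 1 had 9 of 4556 (0.198%, 0.0904 to 0.375) and SARATg bleomycin 1 had 122 of 5165 (2.36%, 1.97 to 2.81). The intervals cover counting error only. SARAWT PBS 2 was also shallow, with a median of 1105 UMIs per barcode against 4861 to 10427 in the other libraries. Of its 845 barcodes, 469 were shared with another library. Without shared barcodes 314 of its cells remained, and 437 of its kept cells reached 1000 UMIs. How far this set its count of 0 was not tested.

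Bleomycin libraries of SARAWT mice were alike, while their PBS libraries ran from none to the second highest share of all 8. The mean share was 1.02% ± 0.26 after bleomycin and 0.792% ± 1.35 after PBS (SD, n = 3 each), a difference of 0.227 percentage points (2-sided exact permutation test, p = 1, with 0.1 the smallest p that 3 against 3 allows). The spread of the PBS group rested on the library labelled SARAWT PBS 3, whose mouse Zfyve9 goes against its label. Without it, all 3 bleomycin libraries lay above the other PBS libraries, and the means differed by 1.01 percentage points (exact permutation test, p = 0.2, the smallest that 3 against 2 allows). The library labelled SARAWT PBS 1, high in human ZFYVE9, was still among them, and without both the PBS arm is SARAWT PBS 2 alone, with 0 of 781 cells, which tests nothing further (difference of 1.02 percentage points, exact permutation test, p = 0.5, the smallest that 3 against 1 allows). With cells thinned to 1000 UMIs to even out depth, the difference was -0.0467 percentage points. In SARATg mice, where each treatment had 1 library, the bleomycin share was above the PBS share with no overlap of their counting intervals and no replicate to test it.

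**Figure D2:**
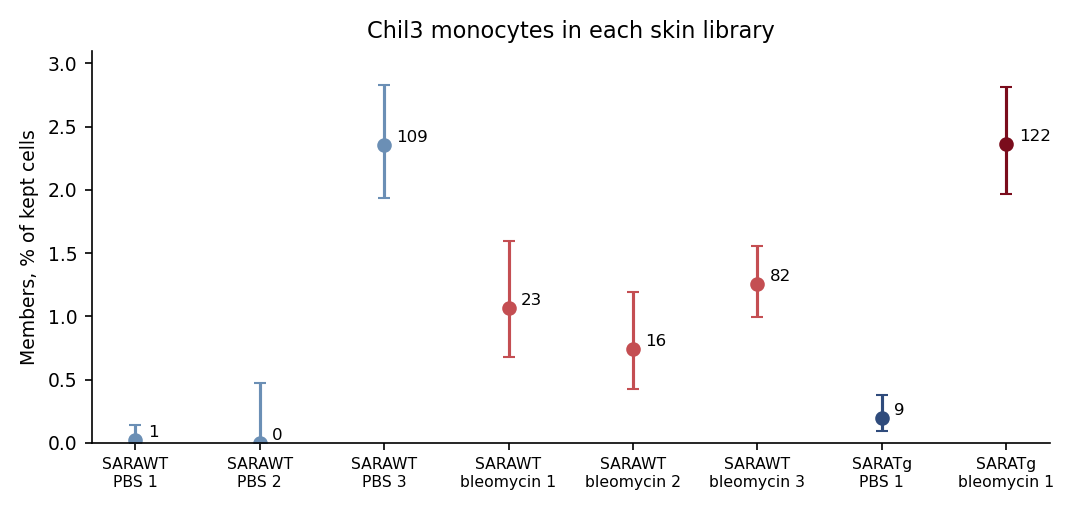
Share of kept cells that were Chil3 monocytes in each of the 8 skin libraries, in percent, with Clopper-Pearson 95% intervals and the number of members beside each point. The library labelled SARAWT PBS 3 (2.35%) and SARATg bleomycin 1 (2.36%) stand highest and the other 3 PBS libraries lowest (0 to 0.198%).

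The second comparison asked which genes differed in members after bleomycin. UMIs were summed over the members of each library, since cells of a library are not replicates, and sums from fewer than 10 members were left out. That left the 3 SARAWT bleomycin libraries against the library labelled SARAWT PBS 3 alone, which was taken to vary like the others and whose Zfyve9 level stood above both SARATg libraries. Treatment, that Zfyve9 level and anything else particular to that library cannot be told apart in this fit. It called 16 of 6441 genes (0.248%) at an adjusted p under 0.05 (edgeR quasi-likelihood test, Benjamini-Hochberg), 7 higher after bleomycin (0.109%) and 9 lower (0.14%).

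To set a further PBS library beside it, the fit was repeated on the 6 libraries with at least 5 members, 4 bleomycin libraries of both genotypes against the library labelled SARAWT PBS 3 and SARATg PBS 1. This choice was made after the values were seen, SARATg PBS 1 holds only 9 members, and both PBS libraries have the higher Zfyve9. It called 14 of 6053 genes (0.231%), 10 higher (0.165%) and 4 lower (0.0661%). The fits share the 3 SARAWT bleomycin libraries and the library labelled SARAWT PBS 3, so they are not independent.

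Of the class II genes, H2-Aa, H2-Ab1, H2-Eb1 and Cd74 passed in both fits, all higher after bleomycin. Cd74, the invariant chain, had 2801 CPM in the library labelled SARAWT PBS 3 and 2629 CPM in SARATg PBS 1, against 15196, 15719 and 10832 CPM in SARAWT bleomycin 1 to 3 and 12502 CPM in SARATg bleomycin 1. H2-Aa had 1065 and 1052 CPM in the PBS libraries and 8062, 7705, 5237 and 5883 CPM in the bleomycin libraries in the same order. H2-Eb1, a β chain, had 788 and 635 CPM after PBS and 6673, 5935, 4278 and 4747 CPM after bleomycin. The lowest bleomycin library was several-fold above the highest PBS library for each of these genes.

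In SARAWT members alone, log2 fold changes were 2.81 ± 0.30 (SE) for H2-Eb1, 2.69 ± 0.29 for H2-Aa, 2.60 ± 0.24 for H2-Ab1 and 2.29 ± 0.24 for Cd74, with an adjusted p of 0.00271 for each (edgeR). With 6 libraries they were 2.93 ± 0.25, 2.69 ± 0.23, 2.64 ± 0.19 and 2.35 ± 0.20, with adjusted p-values of 0.000545, 0.000545, 0.000423 and 0.000545. H2-DMb1, part of the peptide-loading H2-DM pair, had 84.2 and 69.5 CPM after PBS and 315 to 464 CPM after bleomycin and also passed with 6 libraries (2.29 ± 0.29, adjusted p = 0.0138, edgeR). Of the 12 class II list genes tested, 4 passed in the SARAWT fit and 5 with 6 libraries, none lower, with medians of 1.89 and 1.84 against 0.03 and 0.01 over all genes. In 9 of the 12 every bleomycin library lay above both PBS libraries, which held for 11.1% of all genes tested. These 4 genes also passed in every alternative except the one without SARAWT bleomycin 1, where their fold changes were 2.23 to 2.68 but no gene passed (adjusted p 0.777 to 0.919, edgeR).

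**Figure D3:**
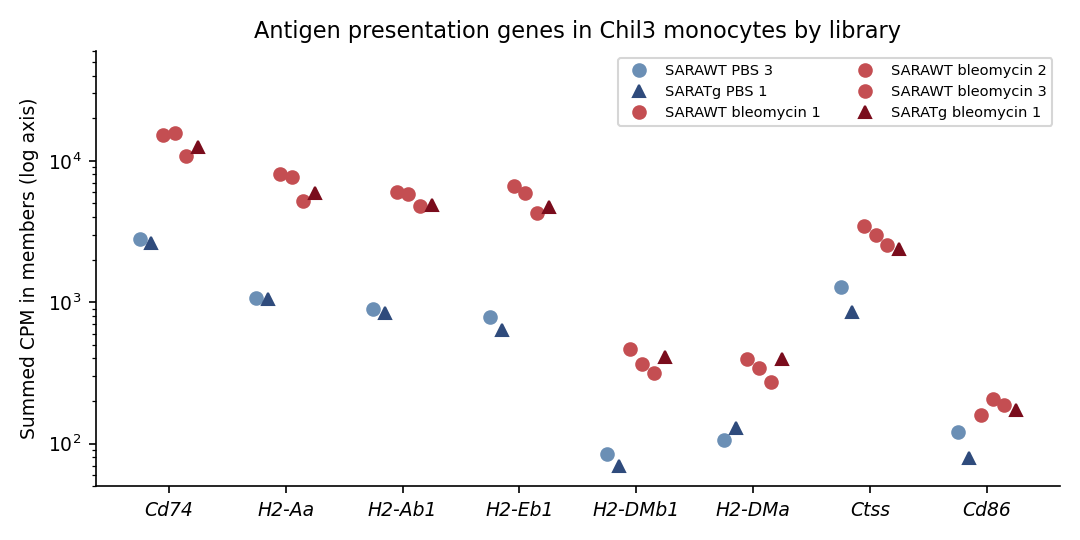
Summed level of 8 antigen presentation genes in Chil3 monocytes of the 6 libraries with at least 5 members, in CPM on a log axis, with circles for SARAWT, triangles for SARATg, blue for PBS and red for bleomycin. For Cd74, H2-Aa, H2-Ab1, H2-Eb1 and H2-DMb1 all 4 bleomycin points lie well above both PBS points.

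The same 4 genes were followed in the other gates of the same libraries. Summed over H2-Aa, H2-Ab1, H2-Eb1 and Cd74, members had 5550 and 5159 CPM in the PBS libraries and 35937, 35173, 25100 and 27999 CPM in the bleomycin libraries. Folr2 macrophages had 15658 and 18468 CPM after PBS and 11946 to 26128 CPM after bleomycin, with overlap. Mmp12 Ear2 cells had 55681 and 56879 CPM after PBS and 47737 to 65624 CPM after bleomycin, also with overlap. Neutrophils and T cells, which should hold little of these genes, differed. Neutrophils had 7429 and 9511 CPM after PBS, above the members, and 1041 to 8759 CPM after bleomycin, below them. T cells had 1002 to 2348 CPM in all 8 libraries, below every value in members. The library labelled SARAWT PBS 1 and SARAWT PBS 2 held too few members to be set beside these. They had 25729 and 36424 CPM in Folr2 macrophages, 65648 and 82517 CPM in Mmp12 Ear2 cells and 1820 and 621 CPM in neutrophils (23 and 7 cells). Folr2 macrophage sums were thus lowest in the library labelled SARAWT PBS 3, SARATg PBS 1 and SARATg bleomycin 1, those with the higher mouse Zfyve9.

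On the log2 scale members differed by 2.52 between treatments (14.9 ± 0.25 against 12.4 ± 0.07, SD, n = 4 and 2), Folr2 macrophages by 0.33, Mmp12 Ear2 cells by -0.02, neutrophils by -0.79 and T cells by -0.04. The log2 ratio of members over Folr2 macrophages was 2.19 higher after bleomycin and that over Mmp12 Ear2 cells 2.55 higher. The 4 genes were chosen for their difference in these libraries, so these values are a description, with no test. They also leave out the library labelled SARAWT PBS 1 and SARAWT PBS 2, whose class II sums in Folr2 macrophages and Mmp12 Ear2 cells lay above both PBS libraries used.

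The difference was seen in counts per cell as well. After each cell was thinned to 5000 UMIs, which kept 347 of 362 members, the median class II sum was 3 UMIs in the library labelled SARAWT PBS 3 (106 cells, quartiles 1 and 23.8) and 3 in SARATg PBS 1 (9 cells). It was 206, 196 and 103 UMIs in SARAWT bleomycin 1, 2 and 3 and 146 in SARATg bleomycin 1. Cells with at most 1 class II UMI were present in every bleomycin library, and the highest PBS cells reached 282 and 238 UMIs. In SARATg PBS 1, 1 of 9 cells held 88 of the 106 H2-Aa UMIs, so without that cell its summed level would be lower still.

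**Figure D4:**
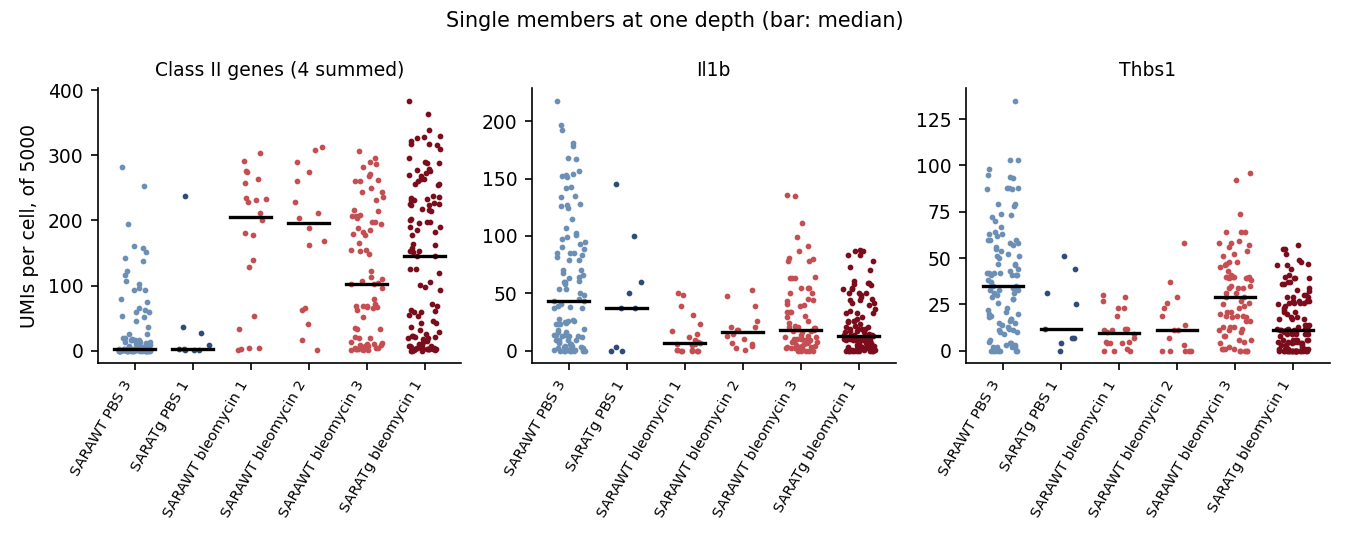
UMIs per member after thinning to 5000 UMIs, for the summed class II genes, Il1b and Thbs1, in the 6 libraries with at least 5 members, with a bar at the median. Class II medians are 3 in both PBS libraries and 103 to 206 in the bleomycin libraries, and cells near 0 occur in all of them.

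Among members of 1 library, class II varied against fibronectin. Spearman correlations of the class II sum with Fn1 were -0.32, -0.63, -0.58, -0.55 and -0.41 in the library labelled SARAWT PBS 3 (106 cells), SARAWT bleomycin 1 to 3 (22, 16 and 78 cells) and SARATg bleomycin 1 (115 cells). Ly6c2 correlated with the summed interferon-stimulated list at 0.30 to 0.61 in the same 5 libraries, and Il1b with the chemokine list at 0.22 to 0.59. Class II and Il1b had no common sign (-0.27 to 0.26). These are descriptions across cells that share a library and a thinned depth, and the list sums hold several abundant genes.

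The other genes called were of mixed kinds. Pltp, a phospholipid transfer protein, had 15.9 CPM in the library labelled SARAWT PBS 3 and 355, 516 and 259 CPM in the SARAWT bleomycin libraries (log2 fold change 4.52 ± 0.59, adjusted p = 0.00864, edgeR). Apoe, the lipid carrier made by macrophages, had 622 CPM against 6798, 3590 and 4256 CPM (2.94 ± 0.37, adjusted p = 0.0069, edgeR). SARATg PBS 1 stood at 129 CPM of Pltp, all 13 UMIs in 1 cell, and 1369 CPM of Apoe, 92 of 138 UMIs in 1 cell, and neither gene passed with 6 libraries (adjusted p = 0.213 and 0.0709, edgeR). H2-K1, a class I heavy chain, had 500 CPM against 2465, 2299 and 1497 CPM (2.03 ± 0.34, adjusted p = 0.0481, edgeR), but SARATg PBS 1 had 1220 CPM, close to the 1294 CPM of SARATg bleomycin 1. Its call was lost with RLE scaling, with 3 Chil3 UMIs, with the stricter cell filter and without doublets (adjusted p 0.0533 to 0.0584, edgeR), and with 6 libraries (0.305, edgeR).

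Genes lower after bleomycin included several that sat in few cells. Fabp4, a fatty acid binding protein, had 149 CPM in the library labelled SARAWT PBS 3, but 168 of its 188 UMIs were in 1 of 109 cells, and all 6 UMIs of SARATg PBS 1 were in 1 cell. Selp, the P-selectin of endothelium and platelets, had 123 of 128 UMIs in 1 cell there. S100a8 had 105 of 217 UMIs in 1 cell. Zfyve9 was also among the genes lower, as its levels above describe, together with Nufip1, Gpalpp1, Tpm3-rs7, Rgcc and the hypoxia-induced Ankrd37 (86.6 CPM against 3.28 to 7.55 CPM). Ankrd37 had 9.92 CPM in SARATg PBS 1 and 7.74 CPM in SARATg bleomycin 1, and its call was lost with the 4 libraries of the short gene list (adjusted p = 0.183, edgeR). The calls of Zfyve9 and Nufip1 were lost with DESeq2 (adjusted p = 0.123 and 0.886), those of Nufip1 and S100a8 with 3 Chil3 UMIs (0.0558 and 0.11, edgeR), and those of Zfyve9, Nufip1, Gpalpp1, Tpm3-rs7, Rgcc and S100a8 with 6 libraries. Nufip1 and Gpalpp1 were at 109 and 89.3 CPM in SARATg PBS 1 and 132 and 86.6 CPM in SARATg bleomycin 1, against 0 to 26.4 and 17.5 to 29.6 CPM in the SARAWT bleomycin libraries. SARATg mice had 1 library of each treatment, and the cause of these levels was not tested.

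With 6 libraries the further genes higher after bleomycin were Ly6a, Spon1, C1qa, C1qb and Ly86. With a gene list term the same 6 libraries called 7 genes, Cd74, H2-Aa, H2-Ab1, H2-Eb1, H2-DMb1, Ly6a and Fabp4, and no longer Spon1, C1qa, C1qb or Ly86. Ly6a, an interferon-inducible surface protein, had 35.8 and 29.8 CPM after PBS and 668, 703, 218 and 530 CPM after bleomycin (log2 fold change 3.93 ± 0.55, adjusted p = 0.0215, edgeR). C1qb, a chain of the first complement component, had 128 and 198 CPM after PBS and 1012, 533, 623 and 588 CPM after bleomycin (2.18 ± 0.34, adjusted p = 0.0381, edgeR). C1qa had 73.1 and 99.2 CPM against 642, 309, 375 and 414 CPM (2.42 ± 0.37, adjusted p = 0.031, edgeR), from 11 of 23, 5 of 16, 21 of 82 and 36 of 122 members in the bleomycin libraries. Ly86, which chaperones the Toll-like receptor relative RP105, had 87.4 and 109 CPM against 305 to 432 CPM (2.00 ± 0.28, adjusted p = 0.0215, edgeR).

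Lower with 6 libraries were Ccl24, Fabp4, Slpi and F10, of which Fabp4 alone was called with the gene list term. F10, which encodes coagulation factor X, had 523 and 536 CPM after PBS and 113, 144, 200 and 207 CPM after bleomycin (log2 fold change -1.63 ± 0.27, adjusted p = 0.0484, edgeR), with UMIs in 93 of 109 members of the library labelled SARAWT PBS 3. Slpi, a protease inhibitor, had 340 and 387 CPM against 56.6 to 114 CPM (-2.04 ± 0.30, adjusted p = 0.0292, edgeR). Ccl24, a chemokine for eosinophils, had 49 UMIs in 5 cells and 4 UMIs in 3 cells of the PBS libraries and 1 UMI in the 4 bleomycin libraries together (adjusted p = 0.0144, edgeR). Ccl24 and Fabp4 are also the only 2 genes tested of the Mmp12 Ear2 cell list. Summed, that list had 211 and 119 CPM after PBS and 18.9 to 33.9 CPM after bleomycin. Most of the PBS sums was Fabp4 (149 and 59.5 CPM) and Ccl24 (38.9 and 39.7 CPM), so the sums largely repeat these calls. The part of Mmp12 Ear2 cell RNA in these calls was not tested.

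Leaving out members with at least 10 UMIs of the keratinocyte and stromal lists, a choice made after the values were seen, moved the SARAWT count from 16 to 89, with 1 cell left out in each of the library labelled SARAWT PBS 3, SARAWT bleomycin 2 and SARAWT bleomycin 3. With 6 libraries, where 4 cells of SARATg bleomycin 1 were left out as well, it moved from 14 to 20, and Apoe was then called (adjusted p = 0.0324, edgeR). All 16 genes called with every member were among the 89. Without SARAWT bleomycin 1 no gene passed (325 at an unadjusted p under 0.05), without SARAWT bleomycin 2 the count was 115, and without SARAWT bleomycin 3 it was 407. The number of calls therefore rested on single libraries and few cells, and the class II calls too were lost without SARAWT bleomycin 1.

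Cytokine and chemokine genes, the best known products of inflammatory monocytes, were abundant. Il1b had 12123 and 9604 CPM after PBS and 2521, 4162, 6251 and 4488 CPM after bleomycin, with no overlap (log2 fold change -1.52 ± 0.34, adjusted p = 0.119 in SARAWT members and -1.30 ± 0.28, adjusted p = 0.14 with 6 libraries, edgeR). Its median after thinning was 43 and 37 UMIs per cell in the PBS libraries and 6.5 to 18.5 in the bleomycin libraries. Cxcl2 had 9681 and 6797 CPM after PBS and 3699 to 8687 CPM after bleomycin, with overlap. Of the inflammatory cytokine list 0 of 14 genes passed in the SARAWT fit (median -0.15) and of the chemokine list 0 of 16 (median -0.41), by edgeR, against 0 of 12 and 1 of 15 (Ccl24) with 6 libraries. With 0.248% and 0.231% of all genes called, counts near 0 say little about lists of this size. In the SARAWT fit 556 of all genes had an unadjusted p under 0.05.

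Thbs1, the matrix gene that leads the members, was not separated by treatment. It had 8051 CPM in the library labelled SARAWT PBS 3 and 2818 CPM in SARATg PBS 1, against 2189, 3014, 5877 and 3239 CPM after bleomycin (log2 fold change -1.15 ± 0.39, adjusted p = 0.362 in SARAWT members, edgeR). Vcan had 1380 and 764 CPM after PBS and 26.4, 199, 357 and 460 CPM after bleomycin, with no overlap (-2.80 ± 0.73, adjusted p = 0.191 in SARAWT members, edgeR). Of 14 classical monocyte list genes outside the rule, none passed in the SARAWT fit (median -0.28), against 0.248% of all genes called. With 6 libraries 1 of the 14 passed (Ly6a), against 0.231% of all genes. Counts of 0 and 1 say little about a list of this size. Ly6c2 and Chil3, which the rule used, stood at 380 and 2004 CPM in members of the library labelled SARAWT PBS 3 and 827 to 2252 and 533 to 937 CPM in the SARAWT bleomycin libraries.

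**Figure D5:**
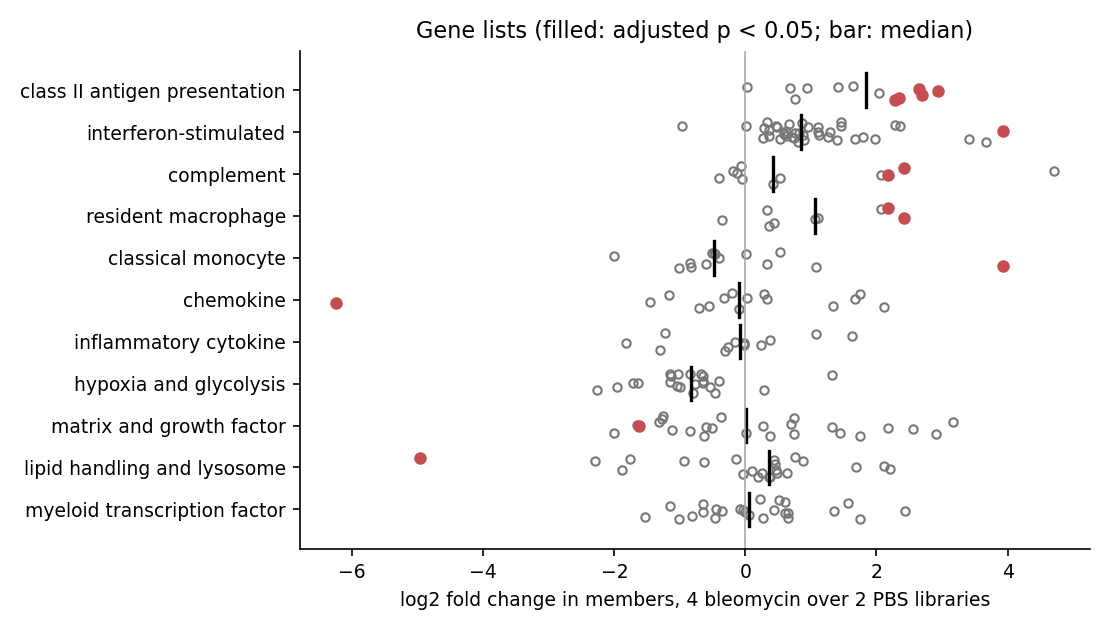
Log2 fold change in members, 4 bleomycin over 2 PBS libraries, for the tested genes of 11 lists, with filled points for an adjusted p under 0.05 (edgeR) and a bar at each list's median. Class II genes have the highest median, with 5 filled points, interferon-stimulated genes mostly to the right with 1 and hypoxia and glycolysis genes mostly to the left with none.

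Several lists leaned one way with few genes passing. With 6 libraries 9 of 10 alternative activation genes had a positive fold change (median 0.9996, 1 passing, lower) and 8 of 9 resident macrophage genes (median 1.06, 2 passing, higher), with every bleomycin library above both PBS libraries in 4 genes of each. In the interferon-stimulated list, 40 of 44 genes had a positive fold change in the SARAWT fit (median 0.72), with 0 passing, against 3352 of 6441 over all genes. With 6 libraries 1 of 40 passed (Ly6a). In 16 of the 40 every bleomycin library lay above both PBS libraries, against 11.1% of all genes. This list summed to 10108 and 8692 CPM in SARAWT bleomycin 1 and 2, which have the long gene list. Among short-list libraries it had 5985 CPM in SARAWT bleomycin 3 and 6806 CPM in SARATg bleomycin 1. The library labelled SARAWT PBS 3 and SARATg PBS 1, also short-list, had 4555 and 3641 CPM. The part of gene list or sex in this lean was not tested. Ifi27l2a had 1806 and 2153 CPM after PBS and 2351 to 3540 CPM after bleomycin, and Irf7, a regulator of interferon genes, 157 and 139 CPM against 252 to 703 CPM. In the hypoxia and glycolysis list, 2 of 23 fold changes were positive in the SARAWT fit (median -1.17, 0 passing) and 2 of 22 with 6 libraries (median -0.83, 0 passing). In 8 of the 22 every bleomycin library lay below both PBS libraries, against 9.52% of all genes. Summed, the list had 11021 CPM in the library labelled SARAWT PBS 3. SARATg PBS 1 had 6638 CPM, inside the 4551 to 7073 CPM of the bleomycin libraries. Pkm, a pyruvate kinase, had 1534 and 953 CPM after PBS and 516 to 705 CPM after bleomycin (-1.39 ± 0.26, adjusted p = 0.0698 in SARAWT members, edgeR).

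Lists tied to bleomycin's action on DNA and to growth had no gene called, which at the share of all genes called says little about lists of this size. None of the 12 p53 target genes tested passed in either fit (medians 0.25 and -0.08), with Cdkn1a at 1043 and 1201 CPM after PBS and 1213 to 1412 CPM after bleomycin. Of the proliferation list 5 genes could be tested and none passed (medians 0.92 in both fits), with Mki67 at 64.4 CPM or less. Of 27 myeloid transcription factor genes, 25 were tested and none passed (median -0.03 in SARAWT members), with Cebpb, a factor for monocyte survival, between 2540 and 3066 CPM in all 6 libraries. None of the 24 migration and adhesion receptor genes passed, and Ccr2 was between 308 and 470 CPM. The pattern recognition, nonclassical monocyte, and immediate early and heat shock lists also had no gene passing in either fit. Of the resident macrophage list 0 of 11 passed in SARAWT members and C1qa and C1qb, of 9 tested, with 6 libraries. Of all genes 0.248% were called in the SARAWT fit and 0.231% with 6 libraries. Counts of 0 in these lists therefore also say little.

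The third comparison asked what SARA overexpression changed after bleomycin. It set SARATg bleomycin 1 (122 members) against SARAWT bleomycin 1 to 3, in a fit of 5 libraries with a term for the gene list. Of the SARAWT bleomycin libraries only bleomycin 3 shares the gene list of SARATg bleomycin 1, so each fitted difference is that of SARATg bleomycin 1 from SARAWT bleomycin 3, 1 library against 1. SARAWT bleomycin 1 and 2 add nothing to its size. The only spread left in the fit, on 1 degree of freedom, is that between them. The edgeR fit shares that spread over genes, so its p-values do not measure a gene's own spread between libraries. It called 65 of 7870 genes (0.826%), 37 higher in SARATg (0.47%) and 28 lower (0.356%). The count was not stable, with 3 by DESeq2, 8 without the gene list term, 31 without members rich in keratinocyte or stromal RNA and 0 when the rule asked for 3 Chil3 UMIs (118 at an unadjusted p under 0.05, edgeR).

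Many of the genes higher in SARATg sat in 1 cell. Krt1, a keratin of the upper epidermis, had 197 CPM in SARATg bleomycin 1 and none in the SARAWT libraries, with 273 of 280 UMIs in 1 member. Apod, an apolipoprotein of fibroblasts, had 740 CPM, with 1046 of 1052 UMIs in 1 member. Krt10, Krt17, Krtdap, Krt77, Calm4 and Lgals7 are also epidermal genes and were called as well. Zfyve9 passed at 322 CPM against 0 to 20.8 CPM (log2 difference 3.89 ± 0.53, adjusted p = 1.6e-10, edgeR). The SARAWT bleomycin 1 and 2 files list human ZFYVE9 apart, at 71.7 and 97.4 CPM in members, so low mouse Zfyve9 does not check those labels.

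Lower in SARATg bleomycin 1 were several chemokine and cytokine genes. Cxcl2 had 3699 CPM against 4665, 5089 and 8687 CPM in SARAWT bleomycin 1 to 3 (log2 difference from bleomycin 3 of -1.29 ± 0.17, adjusted p = 8.53e-12, edgeR), and without the gene list term, against all 3, the difference was -0.79 (adjusted p = 1, edgeR). Ccl4, a chemokine for T cells and monocytes, had 49.97 CPM against 215, 360 and 262 CPM (-2.44 ± 0.46, adjusted p = 3.92e-05, edgeR), and Ccl3, its close relative, 40.8 CPM against 75.5, 292 and 191 CPM (-2.28 ± 0.49, adjusted p = 0.000778, edgeR). Tnf had 230 CPM against 570, 618 and 577 CPM (-1.38 ± 0.36, adjusted p = 0.0191, edgeR), and Spp1, the matrix cytokine osteopontin, 141 CPM against 181, 351 and 579 CPM (-2.10 ± 0.38, adjusted p = 1.27e-05, edgeR). SARATg bleomycin 1 was the lowest of the 4 bleomycin libraries for each of these genes.

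Of the 16 chemokine genes tested 5 were lower in SARATg members (Ccl3, Ccl4, Cxcl1, Cxcl2 and Pf4) and none higher, against 0.356% of all genes called lower, with a median of -0.93 against -0.01 over all genes. Of the 14 inflammatory cytokine genes Tnf and Il10 were lower. None of Cxcl2, Ccl3, Ccl4, Tnf and Spp1 passed with DESeq2 (adjusted p 0.144 to 1), without the gene list term (0.0926 to 1, edgeR) or with 3 Chil3 UMIs (1, edgeR). All 5 passed without the members rich in keratinocyte or stromal RNA. Thbs1 was also called lower (-0.92 ± 0.18, adjusted p = 0.000188, edgeR), although its 3239 CPM lay within the 2189 to 5877 CPM of the SARAWT bleomycin libraries, and no gene was called lower without the gene list term or with 3 Chil3 UMIs. With 1 SARATg library the genotype and that library cannot be told apart.

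Class II genes did not pass between the genotypes after bleomycin. None of 12 class II list genes was called, with a log2 difference of 0.11 ± 0.17 for H2-Aa, 0.15 ± 0.14 for Cd74, 0.09 ± 0.18 for H2-Eb1 and -0.02 ± 0.18 for H2-Ab1 (adjusted p = 1 for each, edgeR). A p that misses the threshold does not show equal levels.

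Whether bleomycin acted otherwise in SARATg than in SARAWT members was tested as an interaction in the 6 libraries with at least 5 members, since SARATg PBS 1 has 9 members. It called 53 of 7067 genes (0.75%), 37 with a higher effect in SARATg (0.524%) and 16 with a lower one (0.226%). Every arm but SARAWT bleomycin is 1 library, and with the gene list term that arm is set by bleomycin 3. The only spread in the fit is thus that between SARAWT bleomycin 1 and 2, again shared over genes by edgeR. Of the genes called, 16 had no UMI in SARATg PBS 1. DESeq2 called 1 gene, and without the gene list term edgeR called none (358 at an unadjusted p under 0.05). H2-Aa, H2-Ab1, H2-Eb1 and Cd74 were not called, with interaction terms of 0.33 ± 0.30, 0.27 ± 0.31, 0.60 ± 0.32 and 0.44 ± 0.25 on the log2 scale (adjusted p 0.791 to 1, edgeR).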

How the data were processed

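GFP+ skin cells were profiled by 10x single-cell RNA-seq. The deposited matrices hold raw UMI counts of each gene in each barcode, the authors' output of Cell Ranger. File headers name versions 4.0.0 and 3.1.0, and the submitters' processing notes 3.0.2, with Seurat 2.3.4 and mm10. Gene lists had 32286 and 31053 rows, with 30406 genes in both, which were used here. Nothing in the sources used here says that doublets were removed. They were scored by simulation within each library.

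Cells were chosen by the rule, and UMIs were summed per library. Fits used sums from at least 10 members (5 in the fits of 6 libraries) and edgeR 4.0.16 (R 4.3.3) with TMM scaling, filterByExpr and the quasi-likelihood test. Benjamini-Hochberg adjustment ran over all genes tested. The SARAWT, genotype and interaction fits were also run on simulated sums, with the same dispersion for every gene and no UMIs concentrated in 1 cell. That run does not bear on how stable the calls here are. DESeq2 1.42.0 was an alternative. Shares were compared by exact permutation tests (scipy 1.17.1), with Clopper-Pearson intervals. Named genes were the up to 10 per direction with the largest log2 fold change among those called, with a mean of at least 20 CPM in a group and no overlap of groups, and list members that passed or had the highest levels. Other genes were named after their values were seen. The members and the 30 gene lists were chosen with earlier results of these data known. Of the list genes, 7 were not matched by name. Alternatives changed the cell filter, the Chil3 threshold, doublets, the gene filter, scaling and covariates, and left out libraries. Promoter sequences were from RefSeq.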

Additional observations from a re-analysis of the deposited data

Results flagged for a closer look

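Bleomycin effects that differed between SARATg and SARAWT members were called for 20 genes named by the rule, from an interaction term in edgeR over 6 libraries with 1 SARATg library of each treatment. On the log2 scale the term was positive for Zfyve9 (5.04), Nufip1 (3.72), Zfp36l1 (3.55), Gpalpp1 (3.48), Tspan3 (3.47), Trim30a (3.38), Dmkn (3.26), Mndal (3.23), Slfn5 (2.99) and Sdc4 (2.88). It was negative for H2-Q7 (-5.94), Odc1 (-5.48), Egr1 (-4.71), Sft2d1 (-4.01), Rora (-3.79), Ccnd2 (-3.72), Ccng1 (-3.43), Cd36 (-3.32), Pltp (-2.93) and Rgs2 (-2.70).

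The only spread in that fit was between SARAWT bleomycin 1 and 2. SARATg PBS 1 entered with 9 members, and the SARAWT effect rested on the library labelled SARAWT PBS 3, whose Zfyve9 stood above both SARATg libraries. Zfyve9, Nufip1 and Gpalpp1 were all high in that library and low in SARAWT bleomycin libraries. For Pltp, the 13 UMIs of SARATg PBS 1 were in 1 cell. Members of that library held 100787 UMIs in all, so low CPM there are few UMIs. Zfp36l1, Tspan3 and Trim30a were at 29.8 CPM in it, Dmkn, Mndal and H2-Q7 at 39.7 CPM and Slfn5 at 49.6 CPM. H2-Q7 was at 3.18 CPM in the library labelled SARAWT PBS 3. DESeq2 called 1 gene in all, with a negative term, and edgeR without the gene list term called 0 (358 at an unadjusted p under 0.05).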

How the results depend on the processing

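The difference in share between SARAWT bleomycin and PBS was 0.227 percentage points, and turned to -0.0467 with cells thinned to 1000 UMIs. Leaving out 1 library gave -0.169 to 1.01, negative without the library labelled SARAWT PBS 1 (-0.156) or SARAWT PBS 2 (-0.169). The exact permutation test cannot pass its threshold at these group sizes in any setting, so it says nothing about stability. With the replicate number as a block the share differed by 0.227 (exact permutation test, p = 1, smallest 0.25), with pair differences of 1.04, 0.738 and -1.10, and the labels do not say what the numbers share. A replicate block could not be fitted in the SARAWT gene fit, which held 1 SARAWT PBS library, and none was run over the 6 libraries.

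The 16 genes of the SARAWT fit became 61 with DESeq2, 257 with no filter on low counts, 49 with a gene list term and 142 over the 5 skin libraries with at least 10 members with genotype and gene list terms. Alternatives added after seeing the data gave 7 (6 libraries, treatment and gene list), 6 (the 4 libraries of the short gene list) and 89 (without members rich in keratinocyte or stromal RNA). Leaving out a bleomycin library gave 0 to 407 calls, and leaving out the PBS library could not be fitted. The 65 genes between genotypes became 3 with DESeq2, 8 without the gene list term, 0 at 3 Chil3 UMIs, 37 without doublets and 31 without members rich in keratinocyte or stromal RNA, and 71 without the library labelled SARAWT PBS 3. Leaving out any bleomycin library there left no residual degrees of freedom (SARAWT bleomycin 1 or 2) or no estimate of the genotype difference (SARAWT bleomycin 3 or SARATg bleomycin 1). C4b turned from -2.20 to 1.10 without doublets and 1.11 without members rich in keratinocyte or stromal RNA. The 53 interaction calls became 1 with DESeq2 and 0 without the gene list term (358 at an unadjusted p under 0.05, edgeR). The causes were not tested.

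Members per library (0 to 122) limit every comparison, and no fit held more than 2 PBS libraries.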
